A study of Mus musculus with 7 samples.

Results

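Matrix metalloproteases (MMPs), the related ADAM and ADAMTS proteases and the TIMP inhibitors were followed in mouse epidermis after deletion of Abca12, a lipid transporter of the skin barrier. The members are all genes of the deposited table whose symbol begins with Mmp, Adam or Timp and a digit, or with Adamts. There were 23 such genes among the 7091 listed: 6 MMPs, 4 TIMPs, 7 ADAMs, 4 ADAMTS proteases and 2 ADAMTS-like genes. GENCODE annotates 84 mouse genes with such symbols, and the other members of these families were not analysed here.

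RNA of separated telogen (resting phase) epidermis was sequenced from 7 mice, 1 library each. The 4 KA mice carried conditional Abca12 alleles (labelled ABCA12-cKO) and K14-CreERT, a tamoxifen-dependent recombinase driven by the keratin 14 promoter of basal keratinocytes. The 3 controls carried ABCA12-c/c without CreERT, so that the deletion and the presence of the recombinase cannot be told apart. All mice were given tamoxifen at 8 weeks of age (3 daily doses of 1 mg for each 40 g) and sampled 2 weeks later. KA 1 and KA 2 were males and KA 3 and KA 4 females, while controls 1 and 3 were females and control 2 a male.

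MMPs are zinc proteases that are made as inactive proenzymes and cut matrix proteins, cytokines and adhesion molecules. TIMPs are secreted proteins that bind the active site of MMPs and of some ADAMs. ADAMs are mostly membrane-bound and release the outer parts of growth factors, cytokines and receptors, although several have lost the residues needed for cleavage. ADAMTS proteases are secreted and process procollagen and proteoglycans, and ADAMTS-like proteins share their ancillary domains but have no protease domain. In skin these families take part in wound closure, hair follicle turnover and leukocyte entry.

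Only genes that passed the authors' own test at an adjusted p-value of 0.05 are in the table (36.5% of the 19407 genes that their adjustment ran over), so that a repeated test of these genes on the same mice is no independent evidence. Reads in the listed genes came to between 9590718 and 12761458 per library. Abca12 itself was not analysed here, and genotypes were taken from the labels. Krt5 and Krt14, which define basal keratinocytes, were abundant in every library (Krt5 220535 to 354814 and Krt14 97831 to 390177 normalised reads). The listed keratinocyte markers did not move together. Of 6, 4 were higher in KA and 2 lower, among them Krt15 (148772 to 196411 in controls and 18090 to 70040 in KA). Values below are normalised reads, that is, counts divided by the authors' size factor of the library. Fold changes and p-values come from the quasi-likelihood test of edgeR on all listed genes, adjusted by the Benjamini-Hochberg method. Scaling factors computed from the listed genes alone would shift the log2 fold changes of all genes by a median of -0.135 (TMM) or -0.174 (median ratio), with 48.2% or 46.2% of calls higher, and no member changes direction under either.

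Of the 23 members, 13 were higher in KA and 10 lower, all with an adjusted p-value under 0.05 (4.45e-05 to 0.0171). Among all 6749 listed genes with enough reads, 52.7% passed as higher and 47.3% as lower, and 6746 passed in all, so that passing does not set a member apart. Values of the groups were fully separate in 22 of 23 members, where 93.5% of all tested genes had no overlap. The median log2 fold change was 1.39 for the members and 0.36 for all tested genes. In size, without sign, it was 1.67 against 0.85, and 21 of 23 members changed by at least 1 on the log2 scale, against 41.3% of all tested genes. A scarce gene passes the authors' test only with a large change, and several members had few control reads. Sizes were not compared at like abundance, so they do not set the members apart. MMPs had 4 higher and 2 lower, TIMPs 2 and 2, ADAMs 5 and 2, ADAMTS proteases 2 and 2, and both ADAMTS-like genes were lower.

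**Figure D1:**
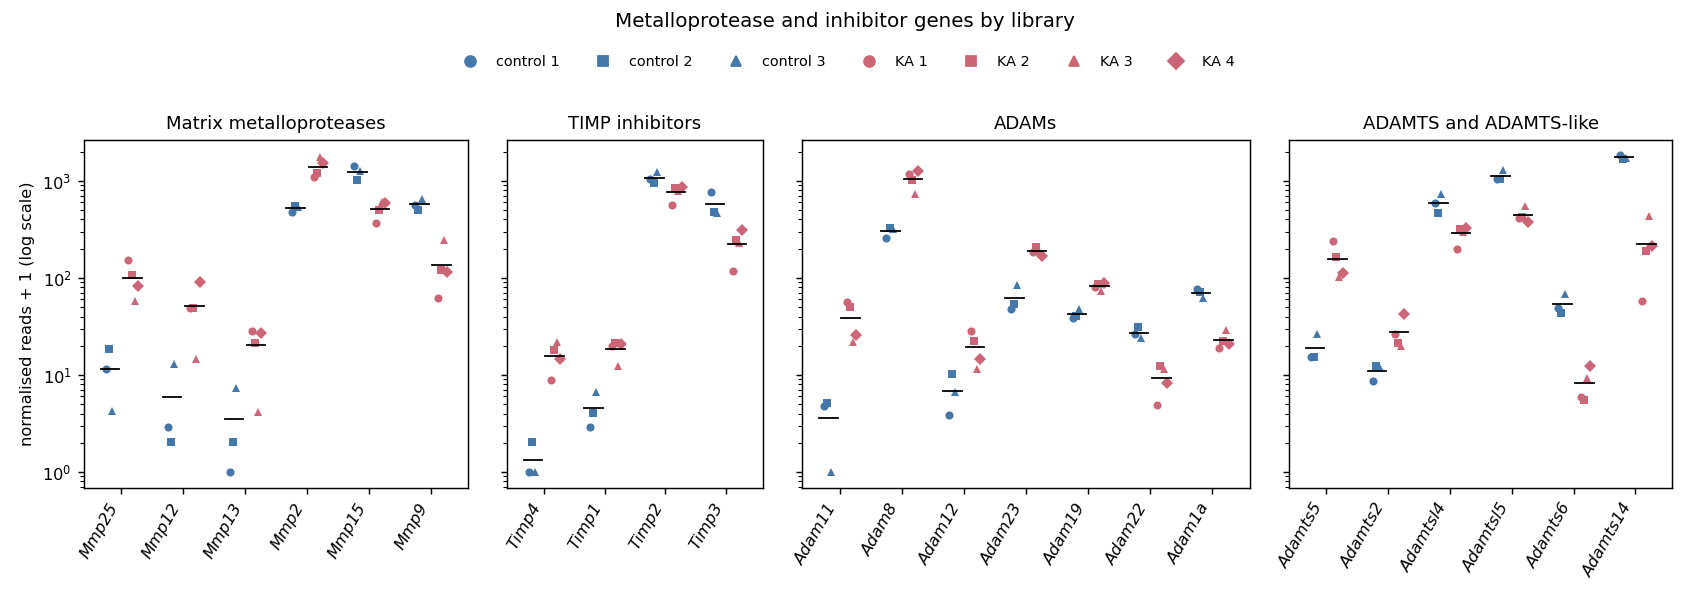
Normalised reads plus 1 (log scale) of the 23 members in each library, by subfamily and ordered by fold change; blue symbols are the 3 controls, red symbols the 4 KA libraries, shapes give the library number and black lines the group means. Every gene except Mmp13 has all KA symbols on one side of all control symbols.

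The gelatinases moved in opposite directions. Mmp2 (gelatinase A, ENSMUSG00000031740, chromosome 8, 92827291 to 92853420 on the plus strand of mm10) degrades denatured collagen and basement membrane collagen IV. It had 478, 543 and 536 normalised reads in the controls, against 1094, 1216, 1752 and 1521 in KA 1 to KA 4. All KA libraries lay above all controls, and both KA females lay above both KA males. The log2 fold change was 1.43 (SE 0.17; edgeR adjusted p = 7.49e-05), a rise from 519 ± 35.7 (SD, n = 3) to 1396 ± 298 (SD, n = 4). Mmp9 (gelatinase B, ENSMUSG00000017737, chromosome 2, 164940780 to 164955850, plus strand) cuts the same kinds of substrate and is made by keratinocytes at wound edges and by leukocytes. It had 566, 494 and 650 normalised reads in the controls and 61.3, 121, 245 and 113 in KA 1 to KA 4. The fall was thus seen in every KA library, deepest in KA 1 and shallowest in KA 3, with a log2 fold change of -2.08 (SE 0.36; edgeR adjusted p = 0.000743). In bulk epidermis, fewer cells of a type and less RNA per cell cannot be told apart, for this fall or for any other.

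Of the membrane-anchored MMPs, one rose and one fell. Mmp15 (membrane-type 2 MMP, ENSMUSG00000031790, chromosome 8, 95352268 to 95375080, plus strand) cuts matrix proteins at the cell surface. It had 1427, 1028 and 1257 normalised reads in the controls and 363, 500, 598 and 593 in KA 1 to KA 4. All KA values were below all control values, and KA 1 was the lowest. This was a log2 fold change of -1.27 (SE 0.18; edgeR adjusted p = 0.0002). Mmp25 (leukolysin, ENSMUSG00000023903, chromosome 17, 23628311 to 23645277, minus strand) is a lipid-anchored MMP first known from neutrophils. It had 10.4, 17.5 and 3.21 normalised reads in the controls and 153, 106, 57.4 and 82.0 in KA 1 to KA 4. The groups were far apart, with both KA males above both KA females, and the log2 fold change was 3.29 (SE 0.52; edgeR adjusted p = 0.00031). Without control 2 it was 3.89, and without control 3 it was 2.83.

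Mmp12 and Mmp13 are neighbours at one end of the cluster of 10 MMP genes on chromosome 9, 61050 bases apart with no annotated gene between them. Both rose from near the detection floor and remained the least abundant of the 6 listed MMPs, per kilobase, in KA epidermis. Mmp12 (macrophage metalloelastase, ENSMUSG00000049723, chromosome 9, 7344381 to 7369499, plus strand) digests elastin. It had 1.89, 1.03 and 12.03 normalised reads in the controls, against 48.5, 48.4, 13.6 and 89.3 in KA 1 to KA 4. KA 3 was barely above control 3, and the others were well apart. Its log2 fold change was 3.20 (SE 0.78; edgeR adjusted p = 0.00369), and 4.96 without control 3. Mmp13 (collagenase 3, ENSMUSG00000050578, chromosome 9, 7272514 to 7283331, plus strand), the main collagenase of mouse wounds, had 0, 1.03 and 6.42 normalised reads in the controls and 27.7, 20.3, 3.13 and 26.0 in KA 1 to KA 4. Here the groups overlapped, since KA 3 was below control 3. The log2 fold change was 2.79 (SE 0.89; edgeR adjusted p = 0.0125), and 4.96 without control 3. Other subsets gave smaller changes, with 2.77 for Mmp12 without KA 4 and 2.25 for Mmp13 without control 1. Control 3 was the highest control and KA 3 the lowest KA library for both genes. Within the higher run of animal numbers, which holds control 3, KA 3 and KA 4, the log2 ratio of means plus 1 was 2.01 for Mmp12 and 1.07 for Mmp13, against 4.33 and 4.04 in the lower run.

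AP-1, the dimer of Fos and Jun proteins, is a known regulator of MMP promoters, so promoter windows from 250 bases before to 50 after each annotated start (RefSeq, GRCm38.p6) were searched for its site TGANTCA. The motif reads the same on both strands. Windows were found for 17 of the 23 members and not for Mmp2, Mmp9, Adam11, Adam12, Adamts5 and Adamts6. A match was present in 3 of 9 members that were higher (Mmp13, Mmp12 and Adam19) and in 0 of 8 that were lower, while 8.97% of 27025 genes, or 7.81% of 32851 windows, hold one. The matches are a description of these letters, with no test and no evidence of binding. The 3 windows are shown, the 2 neighbours first, with the motif in capitals. It begins 35 bases before the start of Mmp13 (chr9:7272264-7272563, plus strand), 44 bases before the downstream of the annotated starts of Mmp12 (chr9:7347124-7347423, plus strand) and 131 bases before the middle one of the starts of Adam19 (chr11:46055734-46056033, plus strand).
Mmp13: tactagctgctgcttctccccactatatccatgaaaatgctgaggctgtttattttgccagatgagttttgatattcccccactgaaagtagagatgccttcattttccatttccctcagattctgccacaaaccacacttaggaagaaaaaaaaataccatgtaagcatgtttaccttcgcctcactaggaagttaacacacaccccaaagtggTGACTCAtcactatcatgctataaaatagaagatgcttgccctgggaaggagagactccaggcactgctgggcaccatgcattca
Mmp12: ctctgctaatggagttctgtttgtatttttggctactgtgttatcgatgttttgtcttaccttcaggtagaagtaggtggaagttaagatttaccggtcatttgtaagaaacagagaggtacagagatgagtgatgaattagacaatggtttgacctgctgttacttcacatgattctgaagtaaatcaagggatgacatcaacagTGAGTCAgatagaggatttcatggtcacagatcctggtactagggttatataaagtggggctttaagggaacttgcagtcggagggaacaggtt
Adam19: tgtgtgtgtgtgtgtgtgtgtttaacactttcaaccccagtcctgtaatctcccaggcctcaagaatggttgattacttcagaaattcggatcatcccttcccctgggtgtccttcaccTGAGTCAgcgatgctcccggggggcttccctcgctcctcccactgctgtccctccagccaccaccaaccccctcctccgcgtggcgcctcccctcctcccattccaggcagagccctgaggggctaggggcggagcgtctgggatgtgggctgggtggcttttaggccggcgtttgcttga

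**Figure D2:**
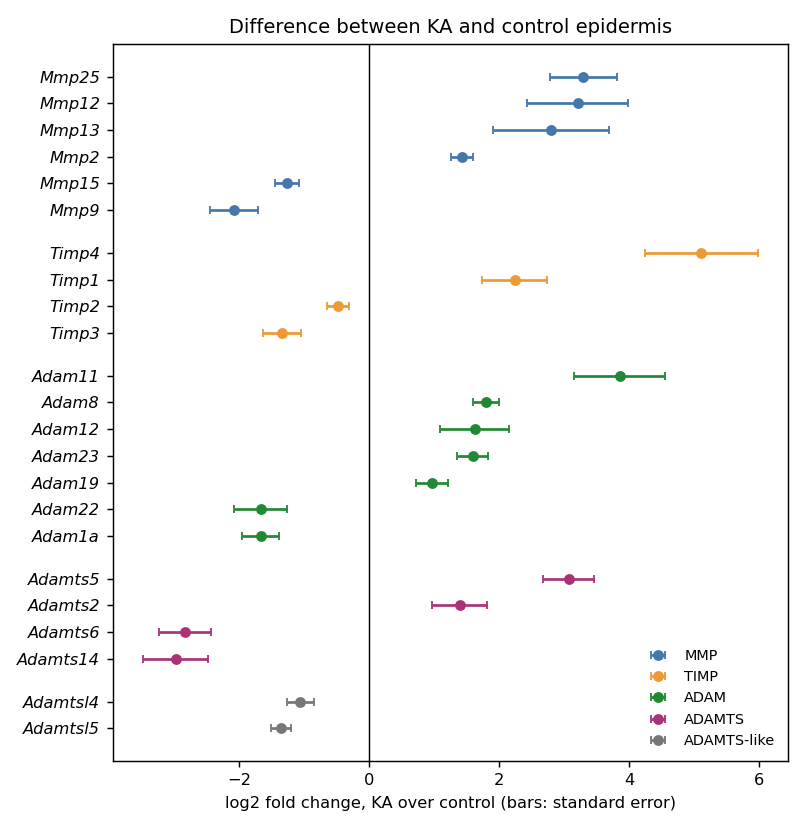
Log2 fold change of KA over control for each member, with its standard error as a bar, coloured by subfamily. Values run from -2.97 for Adamts14 to 5.11 for Timp4, whose size depends on near-absent control reads, and only the ADAMTS-like genes lie on one side of 0.

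The abundant inhibitors fell and the scarce ones rose. Timp2 (ENSMUSG00000017466, chromosome 11, 118301069 to 118355740, minus strand), which blocks MMPs and also helps membrane-type MMPs to activate pro-Mmp2, had 1042, 941 and 1229 normalised reads in the controls. In KA 1 to KA 4 it had 568, 848, 791 and 871. The gap between the groups was narrow, from 871 to 941. Its log2 fold change was -0.48 (SE 0.17; edgeR adjusted p = 0.0171), and without control 3 it was -0.37 with an adjusted p of 0.079. The call was thus lost without control 3, and it was also lost in females alone, which include control 3. Timp3 (ENSMUSG00000020044, chromosome 10, 86300372 to 86349506, plus strand) binds to the matrix and is the TIMP that also inhibits ADAM17. It had 762, 481 and 464 normalised reads in the controls and 118, 243, 227 and 311 in KA 1 to KA 4 (log2 fold change -1.34, SE 0.29; edgeR adjusted p = 0.00214). Control 1 was the highest and KA 1 the lowest library. Timp3 shares 21.3% of its exonic bases with Syn3 on the opposite strand, and the strand setting of the counts is not given in the sources used here.

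Timp1 (ENSMUSG00000001131, chromosome X, 20870166 to 20874735, plus strand), an inducible inhibitor of most MMPs and of ADAM10, had 1.89, 3.09 and 5.61 normalised reads in the controls. It had 18.8, 20.3, 11.5 and 19.7 in KA 1 to KA 4. The groups did not overlap, and the log2 fold change was 2.24 (SE 0.50; edgeR adjusted p = 0.00214) on 2 to 19 counts per library. It was 2.92 in the lower run of animal numbers alone and 1.95 without control 1. Timp4 (ENSMUSG00000030317, chromosome 6, 115241892 to 115252205, minus strand), the TIMP with the narrowest known tissue range, had 0, 1 and 0 counts in the controls. Its KA libraries held 8, 15, 20 and 13 counts, or 7.91, 16.9, 20.9 and 13.5 normalised reads. Against a floor of 3 counts per control library it was at least 5.32-fold higher (edgeR adjusted p = 0.000469), a bound for counting error only.

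Per kilobase of gene length, Timp2 dominated the inhibitors in both groups, with 78.8% ± 4.85 of the TIMP reads per kilobase in controls (SD, n = 3) and 79.9% ± 1.64 in KA (SD, n = 4). Timp3 went from 20.1% ± 5.39 to 10.9% ± 2.24 and Timp1 from 1.13% ± 0.541 to 8.23% ± 2.61. The summed TIMP level, most of it Timp2, was 304 to 379 normalised reads per kilobase in the controls and 183 to 286 in KA. The groups did not overlap, as in 93.5% of all tested genes, but the gap was narrow and the sum was not tested. The order of TIMP levels was Timp2, Timp3, Timp1 and Timp4 in the control means and in the KA means. In KA, Timp3 (14.5 to 38.2 reads per kilobase) and Timp1 (12.9 to 22.8) overlapped. The summed level of the 6 listed MMPs overlapped between the groups, at 495 to 580 in controls and 455 to 714 in KA. What differed was the makeup: Mmp2 went from 28.3% ± 3.88 of this sum (SD, n = 3) to 71.2% ± 1.52 (SD, n = 4), Mmp9 from 29.3% ± 2.01 to 6.28% ± 2.55 and Mmp15 from 41.7% ± 4.24 to 16.4% ± 1.45. In the controls Mmp15 (229 reads per kilobase) stood above Mmp9 (161) and Mmp2 (154), and the latter pair overlapped. In KA the order of the means was Mmp2 (414), Mmp15 (95.2), Mmp9 (38.2), Mmp25 (18.8), Mmp13 (7.21) and Mmp12 (6.90). Only the range of Mmp2 (325 to 520) was clear of all the others. Mmp9 (17.3 to 69.4) and Mmp25 (10.8 to 28.9) overlapped, and in KA 1 Mmp25 (28.9) stood above Mmp9 (17.3). Mmp13 and Mmp12 could not be ranked. These sums leave out MMPs that are not in the table.

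**Figure D3:**
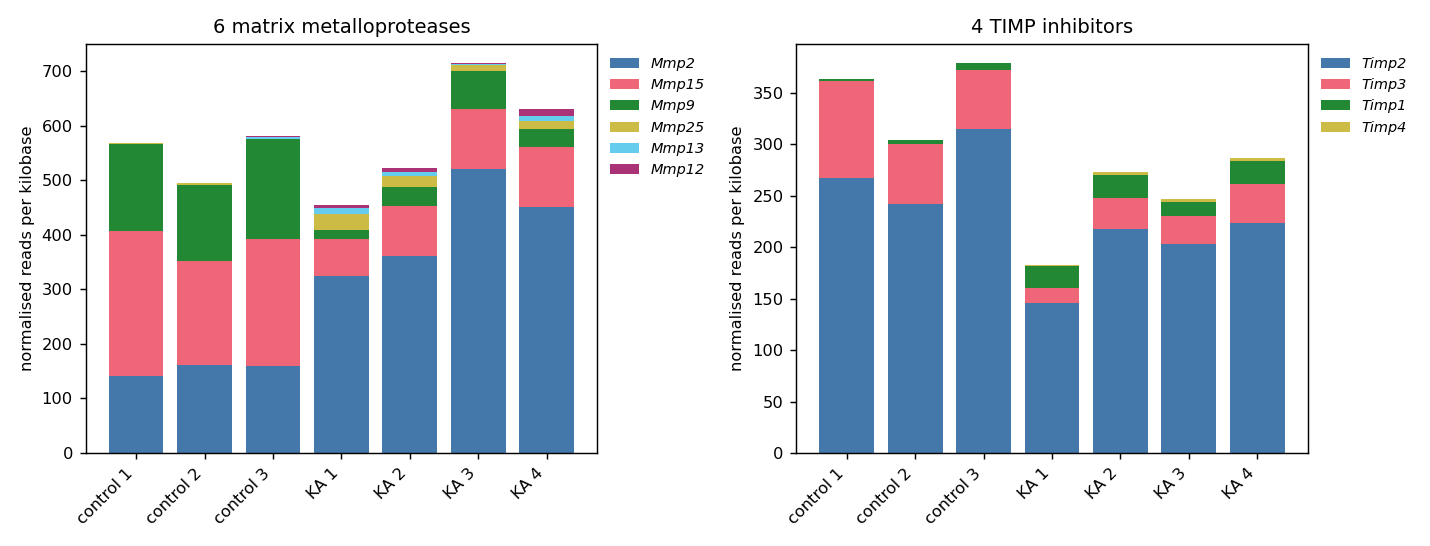
Normalised reads per kilobase of the 6 listed MMPs (left) and the 4 TIMPs (right), stacked by gene, 1 bar per library. The heights of the MMP bars overlap between the groups, while their makeup goes from mainly Mmp15, Mmp9 and Mmp2 to mainly Mmp2. The TIMP bars are lower in KA by a narrow gap that was not tested, with Timp2 as the largest part throughout.

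Among ADAMs with a working protease, 3 rose. Adam8 (ENSMUSG00000025473, chromosome 7, 139978932 to 139992562, minus strand), a sheddase of leukocytes and stressed epithelium, was the most abundant listed ADAM per kilobase in both groups. It had 258, 327 and 315 normalised reads in the controls and 1177, 1014, 727 and 1269 in KA 1 to KA 4. Each KA library held more than any control, with a log2 fold change of 1.80 (SE 0.20; edgeR adjusted p = 4.45e-05), the smallest adjusted p-value of the 23 members. Adam12 (meltrin alpha, ENSMUSG00000054555, chromosome 7, 133883199 to 134232146, minus strand), which can release heparin-binding EGF, had 2.84, 9.28 and 5.61 normalised reads in the controls and 27.7, 21.4, 10.4 and 13.5 in KA 1 to KA 4. The gap between KA 3 and control 2 was narrow. The log2 fold change was 1.63 (SE 0.53; edgeR adjusted p = 0.0134), and it did not pass without control 1 (1.31, adjusted p = 0.0548). Adam19 (meltrin beta, ENSMUSG00000011256, chromosome 11, 46055992 to 46147343, plus strand), a sheddase of neuregulin, had between 37.9 and 47.3 normalised reads in controls and between 72.1 and 87.2 in KA (log2 fold change 0.97, SE 0.24; edgeR adjusted p = 0.00378). Antisense genes cover 8.25% and 6.75% of its exonic bases.

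Adam11, Adam22 and Adam23 belong to the ADAMs that lack protease activity and act in adhesion, best known as partners of Lgi proteins at synapses. They did not move together. Adam11 (ENSMUSG00000020926, chromosome 11, 102761439 to 102780262, plus strand) had 3.79, 4.12 and 0 normalised reads in the controls and 55.4, 49.6, 20.9 and 24.9 in KA 1 to KA 4. The males stood above the females in KA, and all KA values were far above the controls (log2 fold change 3.86, SE 0.70; edgeR adjusted p = 0.00068; 3.21 without control 3). Adam23 (ENSMUSG00000025964, chromosome 1, 63445891 to 63596276, plus strand) rose from between 47.3 and 84.2 to between 168 and 206 normalised reads, with little spread in KA and a log2 fold change of 1.59 (SE 0.24; edgeR adjusted p = 0.000267). Adam22, with under 30 counts in every library (ENSMUSG00000040537, chromosome 5, 8072352 to 8368160, minus strand) had 25.6, 29.9 and 23.3 normalised reads in the controls and 3.96, 11.3, 10.4 and 7.27 in KA 1 to KA 4. It fell in every KA library, with a log2 fold change of -1.66 (SE 0.41; edgeR adjusted p = 0.00341).

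Adam1a (ENSMUSG00000072647, chromosome 5, 121518576 to 121545482, minus strand), a subunit of the sperm protein fertilin, had 76.7, 70.1 and 61.8 normalised reads in the controls and 17.8, 21.4, 28.2 and 19.7 in KA 1 to KA 4. The groups were well apart, with a log2 fold change of -1.67 (SE 0.28; edgeR adjusted p = 0.000452). Its annotated exons share 63.7% of their bases with Gm42878 and 24% with Mapkapk5, both on the same strand, so that these reads cannot be assigned to Adam1a with certainty.

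Of the 4 ADAMTS proteases, 2 rose and 2 fell. Adamts5 (aggrecanase-2, ENSMUSG00000022894, chromosome 16, 85856173 to 85901828, minus strand) cleaves versican and aggrecan, large proteoglycans that bind hyaluronan. It had 14.2, 14.4 and 25.7 normalised reads in the controls and 241, 164, 101 and 111 in KA 1 to KA 4. Males exceeded females among the KA mice, and all 4 stood far above the controls. The log2 fold change was 3.07 (SE 0.39; edgeR adjusted p = 9.73e-05), with 3.82 in the lower run of animal numbers alone and 2.39 in females alone.

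The procollagen N-proteinases, which trim the amino end of fibrillar procollagens, moved in opposite directions. Adamts14 (ENSMUSG00000059901, chromosome 10, 61197112 to 61273438, minus strand) had 1826, 1683 and 1707 normalised reads in the controls and 57.4, 187, 430 and 214 in KA 1 to KA 4. The controls were close together while the KA libraries ranged widely, from KA 1 as the lowest to KA 3 as the highest. The fall, from 1739 ± 76.5 (SD, n = 3) to 222 ± 155 (SD, n = 4), was 7.83-fold in the means (log2 fold change -2.97, SE 0.50; edgeR adjusted p = 0.000859). In the lower run of animal numbers alone the log2 fold change was -3.86, and in females alone it was -2.46. At 335 reads per kilobase, Adamts14 was the most abundant of the 23 members in controls, and at 42.7 it ranked seventh in KA. Adamts2 (ENSMUSG00000036545, chromosome 11, 50602084 to 50807573, plus strand) had 7.57, 11.3 and 11.2 normalised reads in the controls and 25.7, 20.3, 18.8 and 41.5 in KA 1 to KA 4. This small rise (log2 fold change 1.39, SE 0.42; edgeR adjusted p = 0.00921) left it far below Adamts14 per kilobase in both groups. With sample numbers as a replicate block it did not pass (1.09, adjusted p = 0.0565).

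Adamts6 (ENSMUSG00000046169, chromosome 13, 104287835 to 104496695, plus strand), a regulator of fibrillin microfibrils, had 48.3, 42.3 and 67.4 normalised reads in the controls. In KA 1 to KA 4 it had 4.95, 4.51, 8.36 and 11.4, so that every KA library was far below every control. This fall had a log2 fold change of -2.83 (SE 0.39; edgeR adjusted p = 0.000156). The ADAMTS-like genes fell by less. Adamtsl5 (ENSMUSG00000043822, chromosome 10, 80339110 to 80348412, minus strand) had 1037, 1045 and 1281 normalised reads in the controls and 417, 420, 547 and 372 in KA 1 to KA 4. Its KA values were close together, and the log2 fold change was -1.35 (SE 0.15; edgeR adjusted p = 5.46e-05). Adamtsl4 (ENSMUSG00000015850, chromosome 3, 95676201 to 95687917, minus strand), known for fibrillin assembly in the eye, went from between 464 and 728 normalised reads in controls to between 196 and 329 in KA (log2 fold change -1.06, SE 0.21; edgeR adjusted p = 0.00105).

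The size of the change varied among the KA mice in an order that many members shared. KA 1 was the KA library farthest from the control mean in 13 of 23 members and KA 3 the nearest in 15 of 23. Over all tested genes these shares were 58.9% and 48.7%, so the order is one of the whole table. In Mmp2 and Timp4 the order was turned, in that KA 3 was the farthest and KA 1 the nearest. KA males and KA females did not overlap in 8 of 23 members, a share below the 43.9% of all tested genes: males were higher in Adam11, Adam12, Adamts5 and Mmp25, and females in Mmp2, Mmp15, Adamts6 and Adamts14. In these KA mice sex goes with the run of animal numbers in the titles (KA 1 and KA 2 from the lower run, KA 3 and KA 4 from the higher), so the 2 cannot be told apart. All KA libraries lay beyond all controls in the direction of the pooled fit in 23 of 23 members in the lower run and in males, and in 22 of 23, all but Mmp13, in the higher run and in females. Males and the higher run have 1 control each and give no test, and these counts follow largely from how the table was made.

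Several members are also made by leukocytes, and leukocyte markers differed between the groups. Of 12 macrophage and monocyte markers 10 were listed. Of the 9 tested, 7 were higher in KA and 2 lower, where 52.7% of all tested genes were called higher and 47.3% lower. Their summed level was 849 to 1213 normalised reads in controls and 2001 to 2492 in KA. C1qb (complement component C1q) had 4.73, 2.06 and 8.02 normalised reads in the controls and 96.9, 83.4, 37.6 and 118 in KA 1 to KA 4, and Lyz2 (lysozyme) had 43.9 in KA 3, 111 to 159 in the other KA libraries and 26.5 to 37.9 in the controls. Among the KA libraries, KA 3 was the lowest for Mmp12, Mmp13, Mmp25 and Adam8 and for 7 of the 10 listed macrophage markers, but not for Csf1r, the one with the most normalised reads, in which it was the highest, nor for Cd68 and Adgre1. Over all tested genes, rising and falling together, KA 3 was the KA library nearest to the control mean in 48.7%. Nearest means lowest only for a gene that rises, so this share is not a like measure. Adgre1 (F4/80), a macrophage marker that Langerhans cells share, fell from between 129 and 232 to between 54.1 and 66.4, and Ms4a7 was at 0 counts in all controls.

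All 8 of 8 genes on the Langerhans cell list were higher (summed 24814 to 34091 in controls, 47321 to 73007 in KA). Over all tested genes 52.7% were called higher and 47.3% lower. Most of this sum came from Cd74 and the MHC class II genes (H2), and whether it follows Langerhans cells was not tested. Cd207 had 570 to 785 normalised reads in controls and 1165 to 1524 in KA, while Adgre1 fell. Of 10 T cell markers 5 were listed, 1 higher and 4 lower (1335 to 1710 against 707 to 840). Of 11 neutrophil markers only Cxcr2 was listed (0 to 4.01 against 220 to 386 normalised reads). Their part in the values of Mmp12, Mmp13, Mmp25, Mmp9, Adam8 and Timp1 was not tested. Of 12 dermal fibroblast markers, 2 were listed, Fbln1 higher and Col6a1 lower (summed 585 to 864 against 686 to 1010), and their part in Mmp2, Timp2, Timp3 and Adamts2 was not tested either. Endothelial markers had 2 of 9 listed, both higher (11.4 to 28.9 against 51.2 to 84.1). Melanocyte markers had 1 of 6 (Dct, lower, 102 to 205 against 52.9 to 117), adipocyte markers 1 of 6 (Cidec, higher, 1.89 to 9.28 against 15.6 to 41.5), and mast cell and muscle markers 0 of 7 each. Of 10 keratinocyte markers 6 were listed, 4 higher (Krt5, Krt14, Krt1 and Sfn) and 2 lower (Krt15 and Dsc3).

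**Figure D4:**
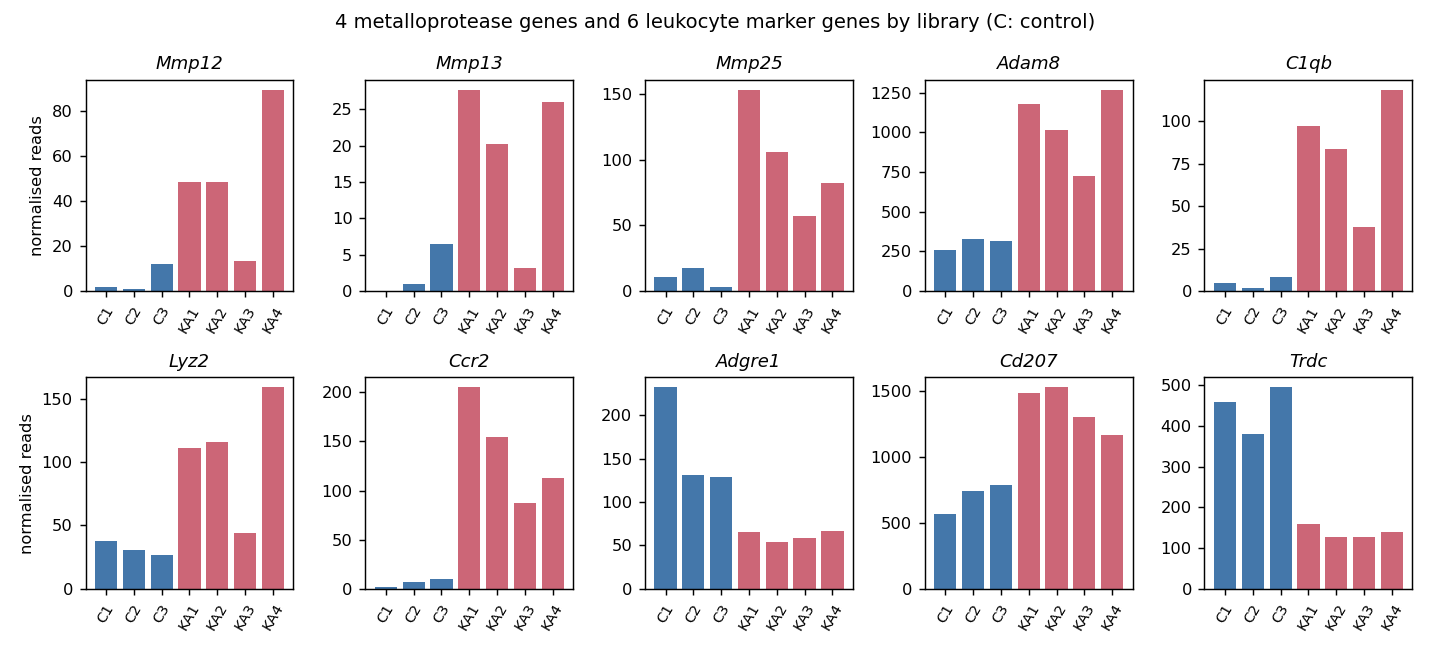
Normalised reads of Mmp12, Mmp13, Mmp25 and Adam8 and of 6 leukocyte markers in each library (blue controls C1 to C3, red KA1 to KA4), each panel on its own linear scale from 0. The markers were chosen for display after their values were seen. C1qb, Lyz2, Ccr2 and Cd207 are higher in KA, Adgre1 and Trdc lower. Csf1r is not drawn. It had 500 to 801 normalised reads in controls, 1412 in KA 3 and 1051 to 1328 in the other KA libraries.

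Of 17 genes of MMP activation and cell-surface control, 8 were listed, 7 higher and 1 lower (52.7% of all tested genes were called higher). Their median log2 fold change was 0.85, against 0.36 for all tested genes. Plau (urokinase), which makes plasmin and so starts MMP activation, had 580 ± 63.4 normalised reads in the controls (SD, n = 3) and rose to 1228 ± 318 (SD, n = 4). Klk6, a trypsin-like kallikrein, rose from 37.3 ± 10.9 to 1457 ± 325. Serpinb2, a plasminogen activator inhibitor, fell from 4024 ± 336 to 2189 ± 431. Furin, the convertase that removes the propeptide of ADAMs and membrane-type MMPs, had a log2 fold change of 0.60 (SE 0.13; edgeR adjusted p = 0.0016).

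Of 10 partners of ADAM10 and ADAM17, 5 were listed, 4 lower and 1 higher (median log2 fold change -0.40), where 47.3% of all tested genes were called lower. Rhbdf1 (iRhom1), which carries ADAM17 to the cell surface, had 3411 ± 469 normalised reads in the controls (SD, n = 3) and fell to 2579 ± 169 (SD, n = 4). The ADAM10 tetraspanins Tspan5 and Tspan15 had log2 fold changes of -0.56 (SE 0.14) and -0.59 (SE 0.20), and Tspan33, whose groups overlapped, one of 1.46 (SE 0.49). Adam10 and Adam17 themselves were not analysed here.

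Substrates that ADAMs release moved both ways. Of 13 EGFR ligands and receptors 7 were listed, 4 higher and 3 lower (median 0.99). This is near the shares of all tested genes, with 52.7% called higher and 47.3% lower. Btc (betacellulin) fell from 641, 648 and 865 normalised reads in the controls to between 73.7 and 86.1 in KA (log2 fold change -3.21, SE 0.17; edgeR adjusted p = 9.01e-07). Ereg (epiregulin) fell from 399 ± 35.9 (SD, n = 3) to 150 ± 26.0 (SD, n = 4), while Epgn (epigen) rose from 373 ± 79.5 to 1442 ± 801 and Nrg1 (neuregulin 1) from 6.54 ± 4.96 to 104 ± 44.3. Of 28 other ADAM substrates 15 were listed, 5 higher and 10 lower (median -0.52). Cd44, the hyaluronan receptor, rose from 2856 ± 314 to 11127 ± 1885 and the membrane chemokine Cxcl16 from 1011 ± 138 to 3012 ± 347. The Notch ligand Dll1 fell from 2015 ± 63.8 to 876 ± 80.6 and the interleukin 6 receptor Il6ra from 5779 ± 656 to 1959 ± 543.

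Of 20 matrix genes at the basement membrane 12 were listed, 10 lower and 2 higher (median -1.08), where 47.3% of all tested genes were called lower. The collagen IV chains Col4a6 (1073 ± 166 to 204 ± 71.5 normalised reads), Col4a5 (702 ± 166 to 241 ± 70.9) and Col4a2 (471 ± 176 to 100 ± 40.4) fell, and the perlecan gene Hspg2 rose from 572 ± 68.6 to 1289 ± 125 (SD, n = 3 and n = 4). Of 22 genes listed for ADAMTS substrates and the hyaluronan matrix around them, 4 were in the table, and none of the 4 is a proteoglycan. All 4 were higher (median 3.84), where 52.7% of all tested genes were called higher. Has2 and Has3, which make hyaluronan, rose from 20.4 ± 15.7 to 171 ± 119 and from 61.8 ± 29.6 to 636 ± 380. Hapln3, a link protein of hyaluronan, rose from 6.01 ± 2.86 to 120 ± 34.6 and the fibrillin gene Fbn2 from 6.98 ± 3.16 to 291 ± 72.1.

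**Figure D5:**
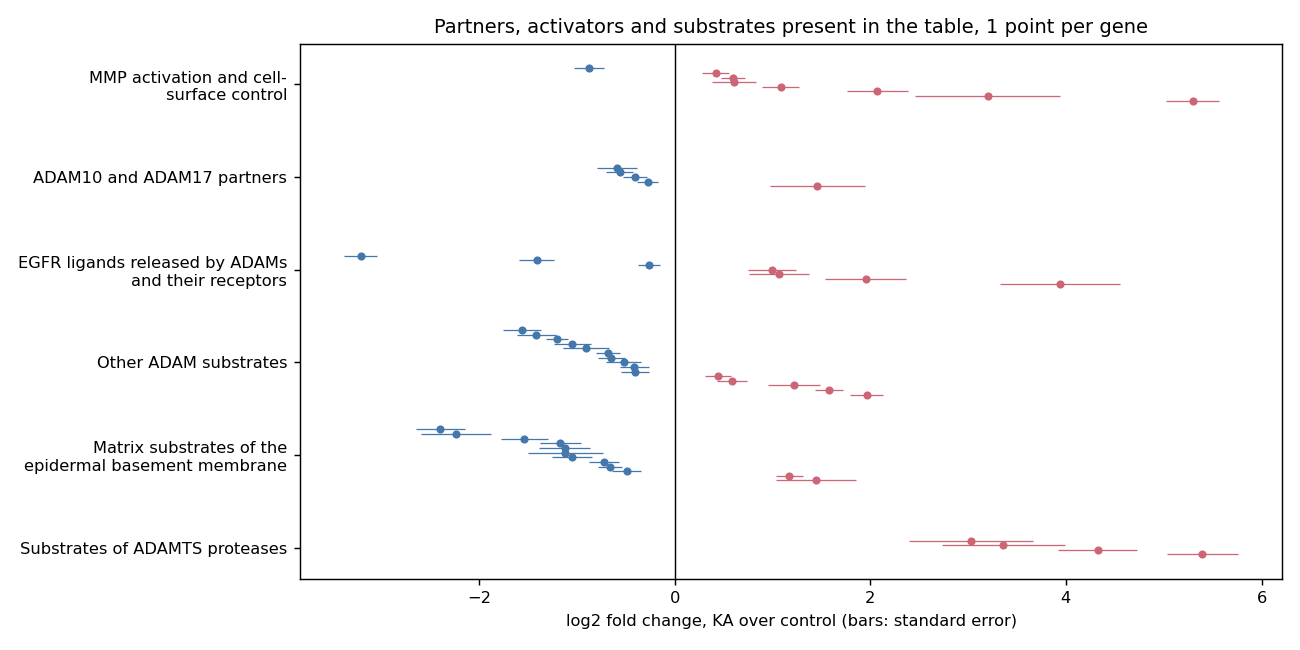
Log2 fold change of KA over control for each listed gene of 6 groups of partners, activators and substrates, with its standard error as a bar; red points are higher in KA and blue points lower. The basement membrane group has 10 of 12 points below 0 and the group labelled substrates of ADAMTS proteases has all 4 above 0.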

How the data were processed

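The values come from 1 table. It holds, per the file headers, raw read counts per gene, and normalised reads that the authors made by dividing counts by 1 size factor per library (a signal without a unit). It also holds the authors' mean signal, log2 fold change with its standard error, test score and p-values before and after adjustment. The submitters' processing notes name fastp, STAR 2.6.1d, featureCounts 1.5.0-p3, DESeq2 1.40.2 and mm10, without roles. The strand setting and annotation are not given in the sources used here. 0 columns belong to other samples.

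Deposited counts were fitted with edgeR 4.0.16 (R 4.3.3; filterByExpr by group, robust glmQLFit, glmQLFTest) on all 7091 listed genes, of which 6749 were kept, with the authors' size factors, since factors computed from listed genes would rest on genes chosen as changed. p-values were adjusted over the genes kept (Benjamini-Hochberg, threshold 0.05). Each standard error was taken as the size of the fold change divided by the root of its F statistic. The fit was tested on simulated counts with known changes. There only a small part of the genes was changed and none was selected by a test. The simulation therefore does not bear on how the listed genes were chosen. Alternatives were other scaling, filters, DESeq2 1.42.0, limma-voom (limma 3.58.1), covariates, a replicate block, subsets of mice and leaving out each mouse. Values of the higher run of animal numbers and of males alone were added after the data were seen.

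Positions are those of the table, and all 23 members had the same start and end in GENCODE M21. Promoter windows are from RefSeq (GRCm38.p6). ADAMs were grouped by known protease activity, since protein sequences were not used here. Per-sample values were given for all MMPs and TIMPs, for the 5 largest changes among ADAMs and among ADAMTS and ADAMTS-like genes, and for members with a mean of at least 500 normalised reads; from each list of other genes up to 4 with the smallest adjusted p-value were named (1 such gene is not reported here), and other genes (Furin, C1qb, Lyz2, Adgre1) were named after their values were seen. The members and lists were chosen with earlier results of these data known.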

Additional observations from a re-analysis of the deposited data

Results flagged for a closer look

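The 4 KA values of 47 genes, the members and the named genes of the lists, were searched for a single library apart from the other KA libraries. The measure was Dixon's ratio, its distance to the closest value divided by the range, and the 95% limit was exceeded in 2 genes (chance alone gives about 2.35). In Timp1, KA 3 (11.5 normalised reads) lay below the other KA libraries (18.8 to 20.3) with a ratio of 0.831. In Serpinb2, KA 4 (2830) lay above the others (1904 to 2012) with a ratio of 0.884.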

How the results depend on the processing

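No member changed direction under any alternative that tested it. The counts of 13 members higher and 10 lower held with TMM and median-ratio factors, no filter, limma-voom and adjustment over 19407 genes. They also held with sex or run of animal numbers as a covariate, with DESeq2 and with the authors' adjusted p-values. The last was fixed in advance, since only genes that passed it are listed. DESeq2 with the authors' size factors largely repeats that test. The lowest counts were 10 higher (replicate block, females alone) and 9 lower (females alone, a log2 fold change of at least 1, without control 3), and leaving out 1 mouse gave 11 to 13 higher and 9 or 10 lower. The sources used here do not say whether mice were paired. Deviations of libraries with the same sample number had correlations of -0.19, 0.13 and -0.10 for numbers 1 to 3, which cannot settle this. The block used these numbers and left out KA 4, whose title has the same letter as those of control 3 and KA 3. The replicate block kept 21 members and passed 10 higher and 10 lower. Calls were lost for Adam12, Adam19 and Timp2 in females alone, Adam12 without control 1, Timp2 without control 3 and Adamts2 with the block. Adam19 and Timp2 changed by less than 1 on the log2 scale. Timp4 or Mmp13 had too few reads to be tested without KA 1, 2, 3 or 4, with the block, in females or the lower run alone, or with a mean of at least 10 counts. Over all genes, 3554 higher and 3192 lower became 1382 and 1401 with a log2 fold change of at least 1, and 2144 and 1937 in females alone. Fold changes of members with under 30 counts in every library (Mmp13, Timp1, Timp4, Adam12, Adam22) are limited by depth.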
